A study of Homo sapiens with 6 samples.

Results

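S100 proteins are small calcium sensors of the EF-hand type that work mostly as dimers. Calcium binding opens a hydrophobic surface through which they bind partners such as annexins and cytoskeletal proteins, and several are also released from cells. In brain S100B is the best known of them, as a marker of astrocytes, and S100A6, S100A10 and S100A11 are common in fibroblast-like and tumour cells. The 10 S100 genes described here, S100A1, S100A2, S100A3, S100A4, S100A6, S100A10, S100A11, S100A13, S100A16 and S100B, were taken by name from the 58051 genes counted in each library, and 9 of them had enough counts to be tested.

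The libraries came from A172, an established human glioblastoma cell line, made to express RBFOX1, an RNA-binding protein of neurons and muscle, or GFP, a fluorescent protein that served as the control. Both constructs were delivered by lentivirus from the same plasmid backbone, and each line was sequenced in 3 replicates as rRNA-depleted, stranded RNA. The study calls these biological replicates, and whether they were separate infections is not given in the sources used here. The p-values thus weigh the difference between groups against the spread of these 6 libraries within their groups only. The question put to them was how RNA levels change when RBFOX1 is supplied to glioblastoma cells.

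Between 7433414 and 23249221 read pairs per library fell on genes. RBFOX1 itself was counted 4, 0 and 1 times in the GFP libraries and 10276, 16467 and 21451 times in the RBFOX1 libraries, as the labels require. GFP replicate 1 was the deepest library and stood apart from GFP replicates 2 and 3, with chi-square values per degree of freedom of 8.08 and 8.23 against them, compared with 1.6 between those replicates and 1.88 to 2.80 among the RBFOX1 libraries. Values without it are given where they change a call. Of the 8 glioma and mesenchymal markers checked, none was missing, with a summed level, in CPM (edgeR's count of a gene relative to the TMM-scaled library total), of 8022 to 8057 in GFP and 4569 to 4630 in RBFOX1 libraries. VIM was the most abundant of them, with means of 4294 and 2731 CPM. Of the 7 astrocyte markers, AQP4, SLC1A3 and S100B had at most 3 counts over all libraries together and GFAP had 13, while the summed level of the list, carried by GJA1, was 77.0 to 86.4 CPM in GFP and 173 to 191 CPM in RBFOX1 libraries. Markers of other cell types summed to at most 6.71 CPM for the 5 immune, 7.84 CPM for the 4 endothelial and 8.03 CPM for the 5 epithelial genes in any library. The endothelial and epithelial sums were higher in every RBFOX1 library than in any GFP library, from 0.787 to 0.926 against 6.98 to 7.84 CPM and from 2.05 to 2.69 against 5.62 to 8.03 CPM. The 6 neuronal genes summed to 377 to 408 CPM in GFP and 1287 to 1426 CPM in RBFOX1 libraries, most of it NEFL, and the 6 genes of melanocytes and Schwann cells to 14.6 to 17.3 and 51.9 to 54.8 CPM, with SOX10 at no count. Past the threshold were 3 higher and 5 lower of the 8 glioma genes, 2 higher of the 4 tested astrocyte genes, 1 higher and 2 lower of the 4 neuronal, 3 higher and 1 lower of the 4 of melanocytes and Schwann cells, 1 higher and 1 lower of the 4 immune, 3 higher of the 3 endothelial and 3 higher of the 5 epithelial ones. For comparison, 23.7% of all genes tested were higher and 22.9% lower, and 30.3 and 28.8% of the protein-coding ones. The immune marker AIF1 had no count and the endothelial CLDN5 had 2. The part of these changes in the S100 results was not tested.

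The S100 genes did not move as a block. S100A6, S100A11 and S100A16, which are among the most abundant transcripts of the cells, fell by 37.0 to 46.2% in RBFOX1 cells. S100A1 rose 14.7-fold from a very low level, S100A13 rose 1.92-fold, and S100A3 and S100A2 rose by less. S100A4 and S100A10 did not pass the threshold, and S100B had 3 counts in all and could not be tested. Thus 4 of the 10 genes were higher and 3 lower past a threshold of 0.05 on the adjusted p (quasi-likelihood test of edgeR, p-values adjusted by Benjamini-Hochberg across the 20536 genes with at least 10 counts in all, which include 9 of these 10), where 23.7% of all genes tested were higher and 22.9% lower, 46.7% in either direction. Among the 14094 tested protein-coding genes the shares were 30.3 and 28.8%. In the same 7 S100 genes the values of the GFP and RBFOX1 groups were fully separated. The same held for 53.4% of all genes tested and for 9104 of the 14094 tested protein-coding genes. These are bulk RNA samples, in which fewer cells with a transcript and less of it per cell cannot be told apart.

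**Figure D1:**
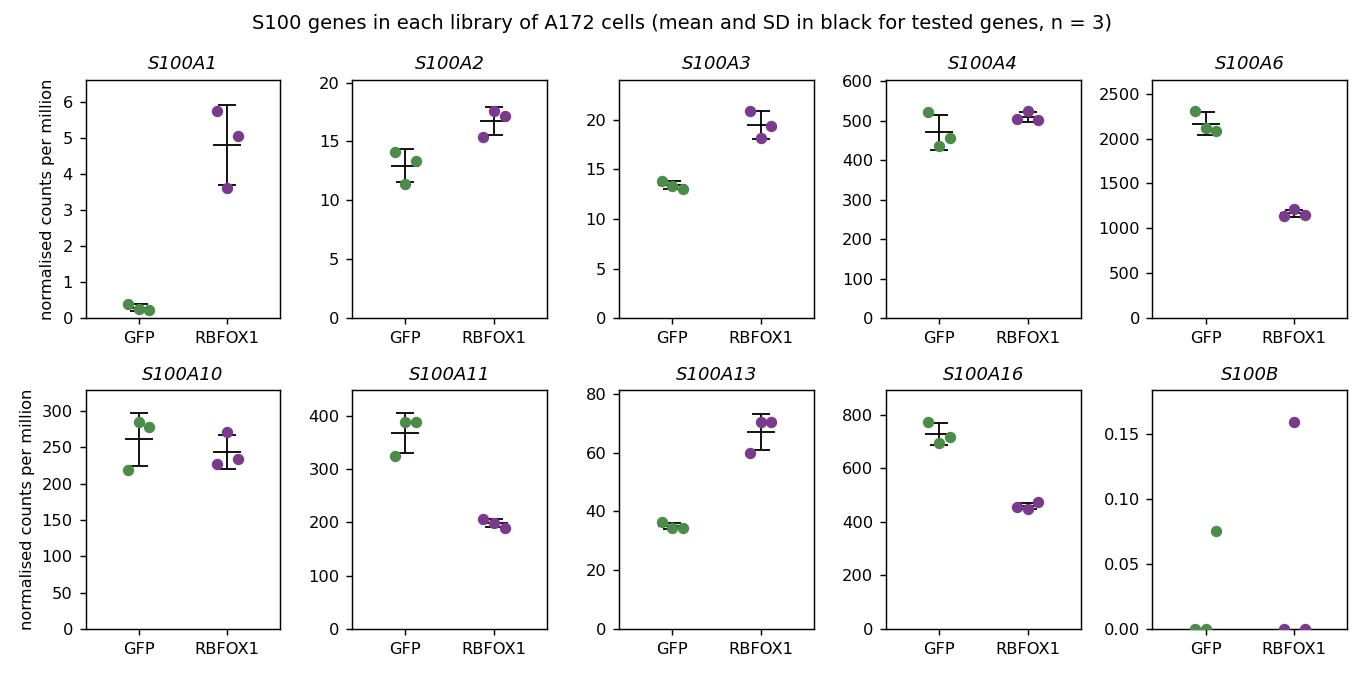
Normalised CPM (vertical axes, from 0, a separate scale for each gene) of the 10 S100 genes in the 3 GFP (green) and 3 RBFOX1 (purple) libraries, each point a library in replicate order, with the mean and SD in black for the 9 tested genes. S100A6, S100A11 and S100A16 sit lower in all RBFOX1 libraries, S100A1, S100A2, S100A3 and S100A13 sit higher, and S100A4, S100A10 and S100B overlap.

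The genes that fell were abundant. S100A6 encodes calcyclin, which binds the calcyclin-binding protein CACYBP and several annexins, and occupies positions 153534599 to 153536244 of chromosome 1, minus strand (GRCh38). It had 2309, 2114 and 2079 CPM in GFP replicates 1, 2 and 3 and 1137, 1212 and 1149 CPM in RBFOX1 replicates 1, 2 and 3. Every RBFOX1 library lay far under the lowest GFP library. The means were 2168 ± 124 and 1166 ± 39.9 CPM (SD, n = 3 each). The log2 fold change was thus -0.89 (standard error 0.0513, adjusted p = 1.44e-11), a level 46.2% lower with a 95% interval of 42.1 to 50.1%. S100A11, also called calgizzarin, is the partner of annexin A1 and lies from 152032506 to 152047907 on the same strand. Its level was 324, 389 and 390 CPM in the GFP and 206, 199 and 190 CPM in the RBFOX1 libraries. GFP replicate 1 was the lowest of its group and still lay above every RBFOX1 library. The log2 fold change of S100A11 was -0.89 (standard error 0.0631, adjusted p = 3.92e-10), a fall of 46.0% with an interval of 40.8 to 50.7%. S100A16, a broadly expressed member that is abundant in glial cells, lies from 153606886 to 153613145 on the minus strand. It had 775, 694 and 716 CPM in GFP against 455, 449 and 473 CPM in RBFOX1 libraries. Its libraries were close together within each group, and its log2 fold change was -0.67 (standard error 0.0509, adjusted p = 1.16e-09), a fall of 37.0% with an interval of 32.2 to 41.5%. This interval lay just outside that of S100A6 and overlapped that of S100A11, and the difference between these falls was not tested.

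The genes that rose were scarcer. S100A1, the main S100 protein of heart and skeletal muscle and a regulator of sarcoplasmic calcium cycling, lies on the plus strand of chromosome 1 from 153627926 to 153632039. It had 9, 3 and 3 counts in the GFP libraries and 44, 45 and 77 counts in the RBFOX1 libraries. That is 0.394, 0.252 and 0.228 CPM against 5.75, 3.60 and 5.07 CPM, where 3 counts were worth 0.131 to 0.392 CPM depending on the library, for counting error only. GFP replicates 2 and 3 were thus at the limit that a count of 0 allows, and every RBFOX1 library was well above it. The log2 fold change of S100A1 was 3.88 (standard error 0.300, adjusted p = 1.37e-09), 14.7-fold with an interval of 9.54 to 22.8, the largest among the S100 genes tested. Even so, S100A1 ranked only 9886th of the 14094 protein-coding genes by level per length in RBFOX1 cells. The length used was that of its merged exons, 3030 nucleotides, and the rank depends on it. S100A13, which takes part in the release of FGF1 by a route outside the classical secretory pathway, lies on the opposite strand from 153618787 to 153631360 and overlaps S100A1. Its level was 36.2, 34.4 and 34.4 CPM in GFP and 59.9, 70.6 and 70.3 CPM in RBFOX1 libraries. RBFOX1 replicate 1 was the lowest of its group and lay well above all GFP libraries. The log2 fold change of S100A13 was 0.94 (standard error 0.0706, adjusted p = 9.03e-10), 1.92-fold with an interval of 1.73 to 2.13.

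S100A3 and S100A2 rose less. S100A3, a cysteine-rich protein of the hair cuticle, lies from 153547329 to 153549258 on the minus strand and had 13.9, 13.3 and 13.1 CPM in GFP against 20.9, 18.2 and 19.4 CPM in RBFOX1 libraries. The groups did not overlap, and its log2 fold change was 0.52 (standard error 0.0900, adjusted p = 6.30e-05). S100A2, known from the basal layer of epithelia, lies from 153561108 to 153567890 on the minus strand and had 14.1, 11.4 and 13.4 CPM in GFP against 15.4, 17.6 and 17.2 CPM in RBFOX1 libraries. Here the groups came closest without overlap, between GFP replicate 1 and RBFOX1 replicate 1. Its log2 fold change was 0.36 (standard error 0.10, adjusted p = 0.00517), 1.29-fold with an interval of 1.11 to 1.49, and its adjusted p lay between 0.00144 and 0.0305 over the alternatives tried.

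For S100A4 and S100A10 the call depended on GFP replicate 1. S100A4, the metastasis-associated protein that binds non-muscle myosin, lies from 153543613 to 153550136 on the minus strand and had 521, 435 and 457 CPM in GFP and 504, 525 and 503 CPM in RBFOX1 libraries. GFP replicate 1 lay inside the RBFOX1 range and the other GFP libraries lay below it. The log2 fold change was 0.12 (standard error 0.0581, interval -0.0060 to 0.24, adjusted p = 0.114). Without GFP replicate 1 it was 0.20 and passed the threshold (adjusted p = 0.000249), and with library totals in place of TMM it was 0.17 and passed it too (adjusted p = 0.0214), while without GFP replicate 2 it was 0.056 (adjusted p = 0.501). S100A10, which has lost calcium binding and forms a heterotetramer with annexin A2 at the plasma membrane, lies from 151982915 to 151993859 on the minus strand. It had 219, 285 and 278 CPM in GFP and 227, 271 and 233 CPM in RBFOX1 libraries. Again GFP replicate 1 stood away from its group, this time below it. The log2 fold change of S100A10 was -0.091 (standard error 0.0806, interval -0.26 to 0.078, adjusted p = 0.394). Without GFP replicate 1 it was -0.20 and passed the threshold (adjusted p = 0.00223). The intervals leave room for a rise of S100A4 of up to 1.18-fold and a fall of S100A10 of up to 16.5%, so a fall as large as that of S100A6, S100A11 or S100A16 lay outside both.

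S100B, also found in Schwann cells, is the only one of the 10 genes off chromosome 1, on chromosome 21 (46598604 to 46605208, minus strand). It was counted 0, 0 and 1 times in GFP and 0, 2 and 0 times in RBFOX1 libraries. All libraries were under 3 counts, so that no fold is given and a difference was not detectable at this depth.

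**Figure D2:**
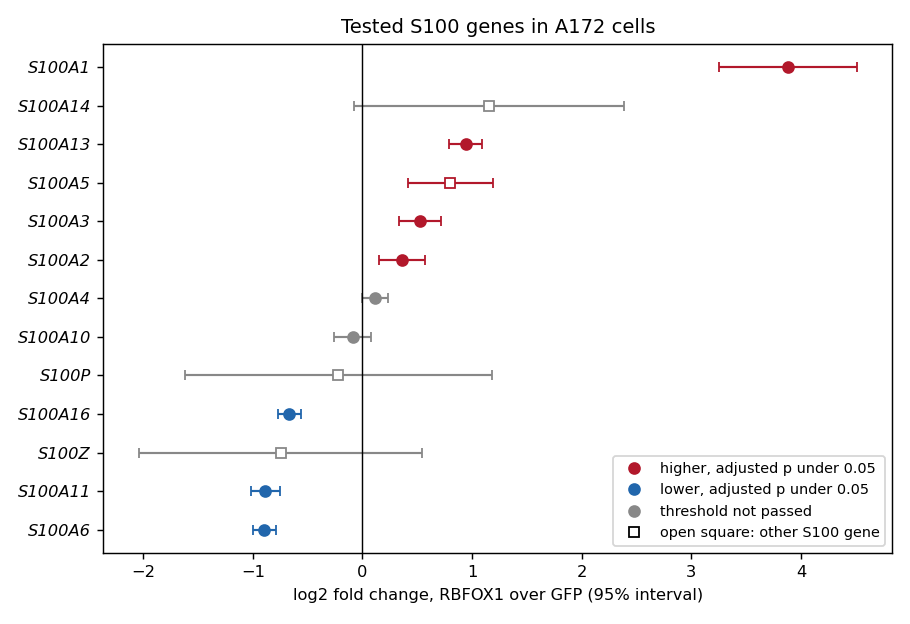
Log2 fold change of RBFOX1 over GFP (horizontal axis, with 95% intervals) for the 9 tested members (filled circles) and 4 other tested S100 genes (open squares), red where higher, blue where lower and grey where the threshold was not passed. S100A1 stands alone at 3.88, S100A6 and S100A11 lie together at -0.89, and the intervals of S100A4 and S100A10 include 0.

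Per length, S100A6 made up the largest part of the family in both groups. CPM divided by the kilobases of merged exons (RPKM) set the levels of different genes side by side, as far as that length holds for the transcripts present. The lengths came from another annotation release than the counts, and which transcripts were present was not measured. In GFP cells S100A6 had 2232 ± 128 RPKM (SD, n = 3) and ranked 4th among the protein-coding genes tested. It was followed by S100A11 with 566 ± 57.8, S100A4 with 498 ± 47.4, S100A16 with 428 ± 24.6 and S100A10 with 258 ± 36.2 RPKM. These abundant genes ranked 22nd, 27th, 33rd and 68th. S100A3 and S100A13 had 15.9 ± 0.495 and 15.8 ± 0.474 RPKM, S100A2 had 8.38 ± 0.925 and S100A1 had 0.0961 ± 0.0296 RPKM. Of the neighbours in this order, S100A11 and S100A4 overlapped in their ranges, as did S100A3 and S100A13, and all others were apart.

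In RBFOX1 cells the order changed. S100A6 still led with 1201 ± 41.1 RPKM and ranked 7th, but S100A4, with 540 ± 13.3 RPKM and rank 16, stood above S100A11 with 306 ± 12.4 RPKM, and S100A16 and S100A10 followed with 270 ± 7.19 and 241 ± 23.2 RPKM (SD, n = 3 each). The ranges of S100A16 and S100A10 overlapped. Further down, S100A13 with 30.2 ± 2.75 RPKM stood above S100A3 with 23.2 ± 1.64 RPKM, and S100A1 reached 1.59 ± 0.363 RPKM. With the longest transcript as the length, S100A11 fell to the fifth place in RBFOX1 cells, behind S100A16 and S100A10, with the ranges of neighbours overlapping, and S100A16 overlapped S100A4 in GFP cells. S100A3 and S100A13 then overlapped in RBFOX1 cells and were apart in GFP cells, the reverse of the merged-exon ranges.

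Summed over the 10 genes, the level was 4143, 3965 and 3961 RPKM in the GFP libraries and 2578, 2708 and 2584 RPKM in the RBFOX1 libraries. S100A6 gave 57.4, 54.9 and 54.1% of this sum in GFP and 45.4, 46.1 and 45.8% in RBFOX1 libraries, while the part of S100A4 went from 13.3, 11.6 and 12.2% to 20.7, 20.5 and 20.6%. The family as a whole thus held less of the RNA, 0.398 ± 0.0139% of gene counts in GFP against 0.273 ± 0.00416% in RBFOX1 cells (SD, n = 3 each). S100A16 kept a similar part, between 9.76 and 11% in every library.

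**Figure D3:**
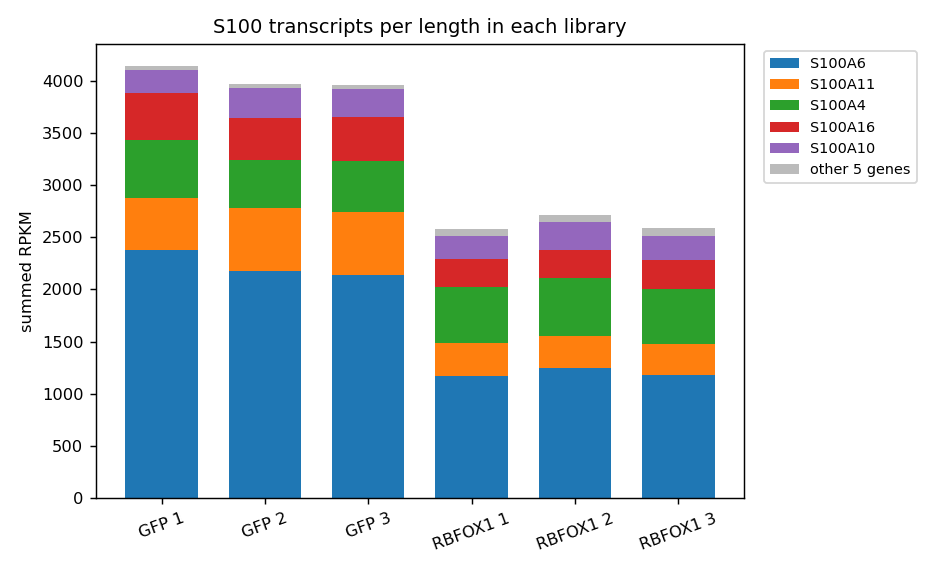
Summed RPKM (vertical axis, from 0) of the 10 S100 genes in each library, stacked for the 5 abundant genes in the order of their mean level in GFP cells, with the other 5 genes together in grey. The sums lie between 3961 and 4143 in GFP and between 2578 and 2708 in RBFOX1 libraries, and the S100A6 part shrinks most.

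On chromosome 1 the 9 S100 genes span 1649 kb. S100A10 and S100A11 lie 38.6 kb apart at one end, and a gap of 1487 kb, which holds FLG and the other fused-type genes, separates them from the stretch that runs from S100A6 to S100A1. S100 genes that rose and S100 genes that fell lay close together. S100A6, which fell, lies 7.37 kb from S100A4, which did not pass the threshold, with S100A5 between them. S100A16, which fell, lies 5.64 kb from S100A13, which rose, with S100A14 between them. S100A11 fell while S100A10, the closest S100 gene to it, did not pass the threshold. From 500000 bp before S100A10 to the same distance after S100A1, 41 of 143 other genes were tested. Of these, 9 were higher and 6 lower (22.0 and 14.6%), compared with 23.7 and 22.9% of all genes tested. Their median log2 fold change was -0.019, compared with 0.0051 over all genes tested. Among neighbours with a mean normalised count of at least 50, TUFT1, which encodes the enamel protein tuftelin, had the largest rise, from 30.8 to 149 CPM (log2 fold change 2.28, adjusted p = 2.29e-16). CHTOP and ILF2, which encode an mRNA export factor and a double-stranded RNA-binding protein and lie just past S100A1, had log2 fold changes of 0.47 and 0.33 (adjusted p = 1.58e-06 and 1.23e-05). CREB3L4, a transcription factor gene, had one of 0.26 (adjusted p = 0.0120, or 0.0650 without GFP replicate 3). TDRKH, a piRNA pathway gene, RPS27, a ribosomal protein gene, SNX27, an endosomal sorting gene, and MRPL9, a mitochondrial ribosomal protein gene, fell by 0.45, 0.42, 0.41 and 0.40 on the log2 scale, with adjusted p-values of 0.000135, 7.50e-07, 8.39e-06 and 2.06e-05.

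**Figure D4:**
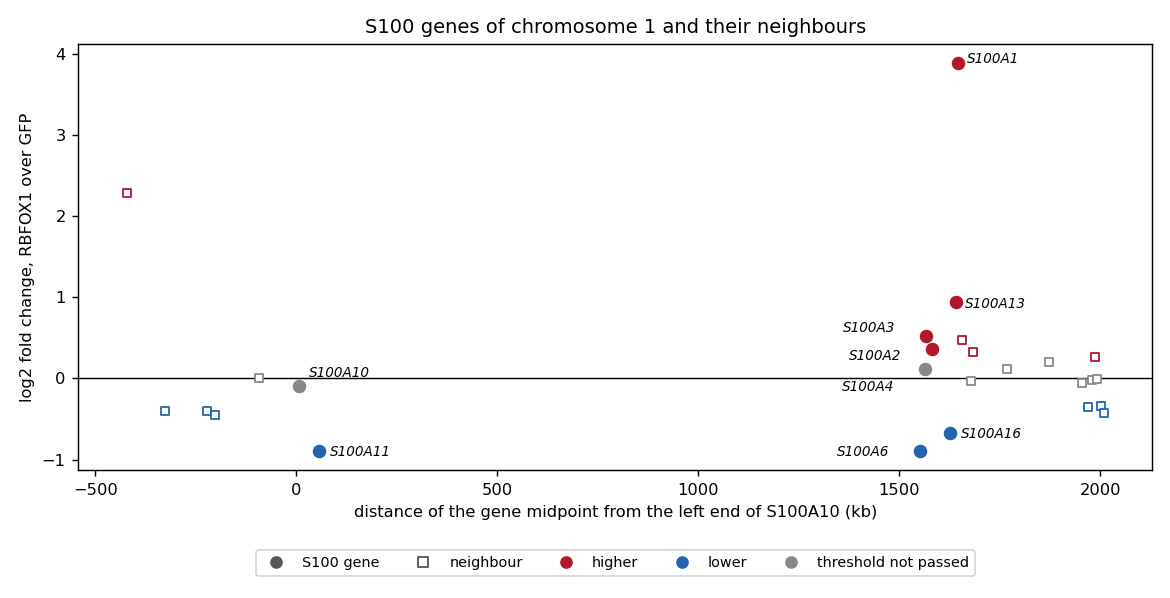
Log2 fold change of RBFOX1 over GFP (vertical axis) against the distance of the gene midpoint from the left end of S100A10 in kb (horizontal axis), for the 9 S100 genes of chromosome 1 (circles) and 17 neighbours with a mean normalised count of at least 50 (squares). S100 genes that rose and fell lie close together at the right, and S100A1 at 3.88 stands well above its neighbours.

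The other S100 genes were scarce or silent. S100A5, which lies between S100A6 and S100A4, was counted 51, 29 and 26 times in GFP and 27, 45 and 65 times in RBFOX1 libraries. That made 2.23, 2.44 and 1.97 CPM against 3.53, 3.60 and 4.28 CPM, with no overlap, and a log2 difference of 0.80 (standard error 0.185, adjusted p = 0.00126). S100A14, S100P and S100Z had between 23 and 27 counts over all libraries and log2 fold changes of 1.16, -0.22 and -0.75 with standard errors of 0.589, 0.670 and 0.616, none of which passed the threshold. S100A14 passed it without GFP replicate 2 (1.72, adjusted p = 0.0406). S100A7, S100A7A, S100A8, S100A12 and S100G had no count and S100A9 had 1. S100A8, S100A9 and S100A12 are the S100 genes of myeloid cells, and none of them could be told from 0 at this depth. Of the 7 fused-type genes, such as FLG, in which an S100 domain joins a long repeat, none had enough counts to be tested.

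The sequences upstream of these genes are shown because adjacent S100 genes differed in their response, and because S100A1 and S100A13, which both rose, start back to back. RefSeq (GRCh38.p14) gives windows from 250 bases before to 50 bases after the start for 9 of the 10 genes, 13 windows in all since S100A2, S100A13 and S100A16 have more than 1. Printed are the stretches of these windows outside any annotated exon, 5′ to 3′ on the strand of the gene, with the GC box GGGCGG, the box CCAAT, the TATA box as TATAAA and the AP-1 site TGANTCA in capitals on whichever strand they stand. S100A10 (chr1:151993860-151994109, minus strand) and S100A11 (chr1:152037005-152037254, minus strand) are the pair at one end of the region. S100A13 (chr1:153627599-153627755, minus strand) and S100A1 (chr1:153628249-153628383, plus strand) belong to RefSeq starts 929 bp apart that point away from each other. S100A13 has other RefSeq starts 1195 and 5927 bp from that of S100A1, and gene counts do not tell which one was used.
S100A10: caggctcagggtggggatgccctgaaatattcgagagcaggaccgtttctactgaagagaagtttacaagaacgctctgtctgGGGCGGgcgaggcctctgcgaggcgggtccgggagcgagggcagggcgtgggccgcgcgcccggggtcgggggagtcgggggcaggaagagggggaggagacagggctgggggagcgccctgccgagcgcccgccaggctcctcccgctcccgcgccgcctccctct
S100A11: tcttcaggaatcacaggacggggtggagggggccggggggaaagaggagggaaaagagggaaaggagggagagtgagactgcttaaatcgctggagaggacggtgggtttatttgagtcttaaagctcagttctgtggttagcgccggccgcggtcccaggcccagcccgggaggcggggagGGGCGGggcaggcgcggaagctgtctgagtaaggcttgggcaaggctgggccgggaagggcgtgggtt
S100A13: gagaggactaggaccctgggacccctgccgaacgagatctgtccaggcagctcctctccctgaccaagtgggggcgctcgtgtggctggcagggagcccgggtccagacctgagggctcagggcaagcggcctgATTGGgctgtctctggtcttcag
S100A1: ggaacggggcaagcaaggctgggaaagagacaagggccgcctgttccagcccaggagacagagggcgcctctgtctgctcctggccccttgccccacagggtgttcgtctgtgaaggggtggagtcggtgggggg
GGGCGG, the GC box, was in 6 of these 13 windows (46.2%), 1 each of S100A3, S100A6, S100A10, S100A11, S100A13 and S100A16, and in 45.0% of all 35116 promoter windows. It thus occurred both in genes that fell and in genes that rose or did not pass the threshold. The GC box of S100A13 was in the window of its start 5927 bp from that of S100A1, not in the window of the printed stretch. TATAAA was in 2 of the 13 windows, of S100A4 and S100A13, and in 11.5% of all windows. That of S100A13 was in the window of the printed stretch but outside the stretch itself. TGANTCA, the AP-1 site, was in 2 of the 13, of S100A2 and S100A3, and in 7.71% of all windows. CCAAT was in 3 of the 13, of S100A3, S100A13 and S100A16, and in 34.6% of all windows. The S100A1 window held none of these letters. None of the searched motifs contains another.

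RBFOX proteins bind TGCATG, and a GCATG core more weakly, in introns and in the 3' UTRs of their targets, so the 3' UTR of the canonical transcript of each S100 gene was searched on the sense strand. None of the 10 held TGCATG. These 3' UTRs are short, from 96 nucleotides in S100A13 and 97 in S100A6 to 648 in S100A16 and 759 in S100B. All but those of S100A16 and S100B have at most 353 nucleotides. The shares given below for the whole length range are thus not matched in length to most of them. Of 14008 tested protein-coding genes with such a 3' UTR, 36.5% held TGCATG, and of the 4366 whose 3' UTR was between 96 and 759 nucleotides long, 10.4% did. A GCATG without the leading T stood once, in S100A3, starting at nucleotide 39 of its 3' UTR of 353 nucleotides, at chr1:153547639-153547643. It is shown with the bases around it, the core in capitals.
S100A3: gtcgggggctggGCATGtctcccacaccc
A GCATG of either kind was in 26.9% of the 3' UTRs in that length range. The search covers only these windows and says nothing of introns or of binding.

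The partners of these S100 proteins moved in both directions too, as did protein-coding genes in general. Of the 14094 protein-coding genes tested, 30.3% were higher and 28.8% lower, the shares against which the lists below can be read. Of 13 annexin genes, which encode calcium-dependent membrane-binding proteins, 12 were tested, 3 were higher and 7 lower (25.0 and 58.3%), with a median log2 fold change of -0.40. ANXA2, the partner of S100A10, fell from 2357 to 1852 CPM (log2 fold change -0.35, adjusted p = 8.67e-06). ANXA1, the partner of S100A11, fell from 782 to 543 CPM (-0.53 on the log2 scale, adjusted p = 1.67e-08). ANXA11, which binds S100A6, had a log2 fold change of -0.075 (adjusted p = 0.220). ANXA7, ANXA9 and ANXA5 fell by 0.84, 0.61 and 0.59 on the log2 scale, and ANXA4 rose by 0.49 (adjusted p of 2.36e-11, 0.000806, 1.78e-09 and 1.97e-07).

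Of 27 other partners and receptors, 26 were tested, 10 were higher and 10 lower (38.5% each), with a median log2 fold change of 0.045. CACYBP, the calcyclin-binding protein, went from 156 to 133 CPM (log2 fold change -0.23, adjusted p = 0.00361). MYH9, the myosin heavy chain bound by S100A4, rose from 847 to 1389 CPM (0.71 on the log2 scale, adjusted p = 2.39e-08), and FGF1, the cargo of S100A13, rose from 3.84 to 8.07 CPM (1.05, adjusted p = 5.41e-06). The tropomyosin genes TPM1 and TPM2 had log2 fold changes of 1.97 and 0.57 (adjusted p = 3.51e-17 and 2.68e-08). TPM3 and TPM4, more abundant in GFP cells with 712 and 1177 CPM, fell by 0.20 and 0.25 on the log2 scale (adjusted p = 0.00201 and 0.000489). PLAT, tissue plasminogen activator, which binds S100A10, fell from 1477 to 628 CPM (-1.23, adjusted p = 1.49e-13). TLR4, a receptor of secreted S100 proteins, fell from 81.96 to 27.97 CPM (-1.55, adjusted p = 1.31e-13). AGER, the receptor RAGE, had 10 to 35 counts in a library and a log2 difference of 0.073 (standard error 0.286, adjusted p = 0.866). MDM2, the ubiquitin ligase of p53, and PPFIBP1, the S100A4-binding liprin beta 1, fell by 0.80 and 0.66 on the log2 scale (adjusted p = 2.29e-11 and 1.72e-08). AHNAK, a giant scaffold of the S100A10 and annexin A2 complex, had a log2 fold change of 0.26 (adjusted p = 0.00733), which did not pass the threshold with DESeq2 (adjusted p = 0.0982) or without RBFOX1 replicate 1 (adjusted p = 0.0581).

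Among other EF-hand calcium sensors and buffers, 36 of 51 genes were tested, 9 were higher and 15 lower (25.0 and 41.7%), with a median log2 fold change of -0.12. The largest rise by the naming rule was that of SPARC, a secreted matrix protein with EF-hands, from 1550 to 7534 CPM (2.28 on the log2 scale, adjusted p = 6.98e-18). PPP3R1, the regulatory subunit of calcineurin, CALM3, a calmodulin gene, and HPCAL1, a visinin-like sensor, had log2 fold changes of 1.13, 0.72 and 0.52 (adjusted p = 2.36e-11, 1.51e-09 and 1.15e-07). CALB2, calretinin, fell from 10.7 to 3.40 CPM (-1.62, adjusted p = 6.68e-09), and CALU (calumenin), GCA (grancalcin) and RCN2 (reticulocalbin 2) fell by 0.92, 0.69 and 0.68 on the log2 scale (adjusted p = 1.90e-12, 1.46e-05 and 1.59e-09).

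Reads of overlapping genes can limit the counts of S100A13 and S100A1. In GENCODE release 44, 24.2% of the exon length of S100A13 is shared with exons of ENSG00000271853 on the same strand. That gene was not among the genes tested, which does not show how many reads fell on the shared part. Reads there can be left uncounted as ambiguous. S100A1 and S100A13 overlap on opposite strands, which stranded counting is meant to keep apart. Exons of S100A13, ENSG00000271853 and ENSG00000272030 lie opposite 18.3% of the exon length of S100A1. How many reads were assigned to the wrong strand was not measured. In the GFP libraries S100A1 had 9, 3 and 3 counts and S100A13 had 828, 409 and 453.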

How the data were processed

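RNA from A172 cells expressing GFP or RBFOX1 (3 libraries each) was analysed. The authors aligned reads to GRCh38 with HISAT2 and made the deposited counts with HTSeq-count (intersection-strict mode, reverse strand, Ensembl v87 genes), unnormalised, with versions not given in the sources used here. Their table of DESeq2 fold changes and p-values was not used. Of all read pairs, 52.0 to 61.9% fell on genes. The 5 HTSeq summary lines (no feature 6.61 to 8.74%, ambiguous 6.89 to 9.35%, low quality 16.8 to 27.0%, not aligned 4.64 to 7.46%) stayed out of all fits.

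Counts were scaled with TMM to CPM and tested with edgeR 4.0.16 (R 4.3.3) by the quasi-likelihood test, two-sided, condition as the only term, over the 20536 genes with at least 10 counts in all. Standard errors and 95% intervals come from that test. DESeq2 1.42.0, limma-voom (limma 3.58.1), other scalings and filters, a replicate block and the omission of each replicate were alternatives. Symbols, positions and lengths came from GENCODE release 44 (98.1% of identifiers matched), promoter sequences from RefSeq. Members and gene lists were chosen with earlier results of these data known. Named from each list were the up to 4 largest rises and falls past the threshold. Only genes with a normalised count averaging at least 50 and no overlap between groups were eligible. RBFOX1, the S100 genes, ANXA1, ANXA2, ANXA11, AGER, AHNAK, CACYBP, TPM3 and TPM4 were named besides. Another gene that the rule names is not reported here.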

Additional observations from a re-analysis of the deposited data

How the results depend on the processing

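Of the 14 alternatives, each gave 4 or 5 S100 genes higher and 3 or 4 lower, the fifth being S100A4 (library totals, or without GFP replicate 1) and the fourth S100A10 (without GFP replicate 1). The other 7 called S100 genes kept direction and call in all 14. Their log2 fold changes lay between 3.74 and 4.25 for S100A1, 0.91 and 1.01 for S100A13, 0.49 and 0.58 for S100A3, 0.28 and 0.45 for S100A2, -0.92 and -0.84 for S100A6, -0.97 and -0.84 for S100A11, and -0.71 and -0.61 for S100A16. Leaving out a replicate gave 1 to 2 other S100 genes higher. With the longest transcript as length, S100A6 made up 58.0% of the summed RPKM in GFP and 48.2% in RBFOX1 cells, in place of 55.5 and 45.8%, because the alternative shortens each gene by a different amount. No pairing by replicate number was seen, with correlations of -0.171, 0.0342 and -0.0549 between same-numbered libraries. Those between unlike-numbered libraries ran from -0.15 to 0.18. With 3 libraries per group these values cannot show that the libraries were unpaired. A fit with the replicate numbers as a block gave 4 S100 genes higher and 3 lower. Of all genes it gave 4588 and 4458, compared with 4869 and 4712 without the block. Depth limits S100A1 in GFP cells and S100B throughout.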

Other observations

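Most S100 transcripts are short. Among the 693 tested protein-coding genes, other than the members, whose longest annotated transcript was at most 1200 nucleotides, a limit chosen after the values were seen, 26.0% were higher and 24% lower in RBFOX1 cells, with a median log2 fold change of 0.040. The shares over all tested protein-coding genes were 30.3 and 28.8%, with a median of 0.017.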
